A study of Mus musculus with 8 samples.

Results

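Endothelial and angiogenesis genes were compared between WT and MDR1A KO mice in colonic tumors that followed colitis. The set held 31 genes of 22184 measured ones: 13 endothelial surface and junction proteins, 7 receptors, 7 ligands, 3 transcription factors and 1 gene of lymphatic endothelium. The rule lists them by name, though they were chosen with earlier results of these data known. Each was read from the probe set that carried its symbol alone and was brightest by the mean over the 8 arrays. Tumors came from male FVB/N mice that were 6 weeks old when they received azoxymethane (AOM), a colon carcinogen, once at 10 mg/kg. The mice then drank 2.5% dextran sulfate sodium (DSS), which injures the colonic epithelium, for 7 days from days 0, 21 and 42, and all were sacrificed on day 84. 4 WT and 4 MDR1A KO mice gave 1 tumor each, recorded as an adenoma, and each tumor was hybridised to its own Affymetrix Mouse Gene array. The KO is germline and global, so that Abcb1a, which encodes the drug efflux pump P-glycoprotein, is disrupted in endothelium as in every other cell. The extraction kit was 1 of 2 for each RNA, without a record per tumor.

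Blood vessels of a tumor grow from endothelial cells, which are held together by VE-cadherin and CD31 and respond to secreted ligands through surface receptors. VEGF-A acts through VEGFR2 to drive sprouting, the angiopoietins act through Tie2 on vessel stability, apelin acts through its own G protein-coupled receptor, and VEGF-C through VEGFR3 is the main growth signal of lymphatic vessels. In the colon, VEGF-A is made by epithelial and stromal cells, whereas most of the receptors are largely limited to endothelium.

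Before the results, the genotype labels and the makeup of the tumors were examined. The log2 signal of Abcb1a was 8.69, 9.10, 9.46 and 8.93 in the WT tumors and 6.14, 6.13, 6.37 and 6.87 in the MDR1A KO tumors, so the groups were apart (log2 fold change -2.67, SE 0.20, limma adjusted p = 0.00599). Which exons its probe set reads was not given. The 31 members all had means over the 8 arrays above 5.06, the limit under which a probe set was called dim, including the defining endothelial genes Pecam1, Cdh5, Kdr, Emcn, Tie1, Erg and Esam. In single tumors Angpt1 was under that limit, at 4.58 in WT replicate 2 and 4.78 in MDR1A KO replicate 3. Icam2 was too, at 4.78 in MDR1A KO replicate 3. The MDR1A KO mean of Apln (5.58) and both group means of Pgf, Angpt1 and Icam2 were below the lowest array median of 5.62. WT replicates 2, 3 and 4 stood apart in stromal markers. The mean deviation of 10 smooth muscle markers from their gene means was 0.93 in WT replicate 3 and -1.34 in WT replicate 4 on the log2 scale, and that of 9 leukocyte markers was 0.59 and -0.66. WT replicate 2 was also low in both lists, at -1.18 and -0.61. The MDR1A KO tumors lay between 0.20 and 0.62 for smooth muscle and between -0.07 and 0.47 for leukocyte markers. Many results are therefore also given without WT replicates 3 and 4, an alternative chosen after the values had been seen. These 2 tumors also held the extremes of the mean of the members other than ligands. Because whole tumors were measured, fewer endothelial cells and less RNA per endothelial cell cannot be told apart.

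The endothelial and angiogenesis genes were divided between higher and lower means in MDR1A KO tumors, and the few members that stood out were in the VEGF and apelin axes. Of the 31 members, 17 had a higher and 14 a lower mean in MDR1A KO tumors, with a median log2 fold change of 0.02 against 0.0027 over all 22184 genes. 4 members had an unadjusted limma p under 0.05, of 25341 probe sets tested of which 6.4% did. Vegfc and Aplnr were higher in MDR1A KO tumors, against a background of 3.66% in that direction, and Vegfa and Apln were lower, against 2.74%. The limma count of 4 of 31 was above that share, on few genes that were chosen with earlier results of these data known. No member had an adjusted p under 0.05 (smallest 0.61), a threshold that 0.0158% of all probe sets passed. Only Apln also differed by at least 2-fold, as 0.241% of probe sets did. The 2 groups of tumors did not overlap for 2 members, Vegfa and Apln, against 3.72% of probe sets. By the methods' t-test only Vegfa, 1 of 31 members, had an unadjusted p under 0.05, where 6.12% of probe sets did. By that test the count was not above the background. Without WT replicates 3 and 4 the count was 7 of 31 members (Vegfa, Apln, Aplnr, Cdh5, Acvrl1, Mmrn2 and Vegfb), but 12.1% of all probe sets then passed as well.

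**Figure D1:**
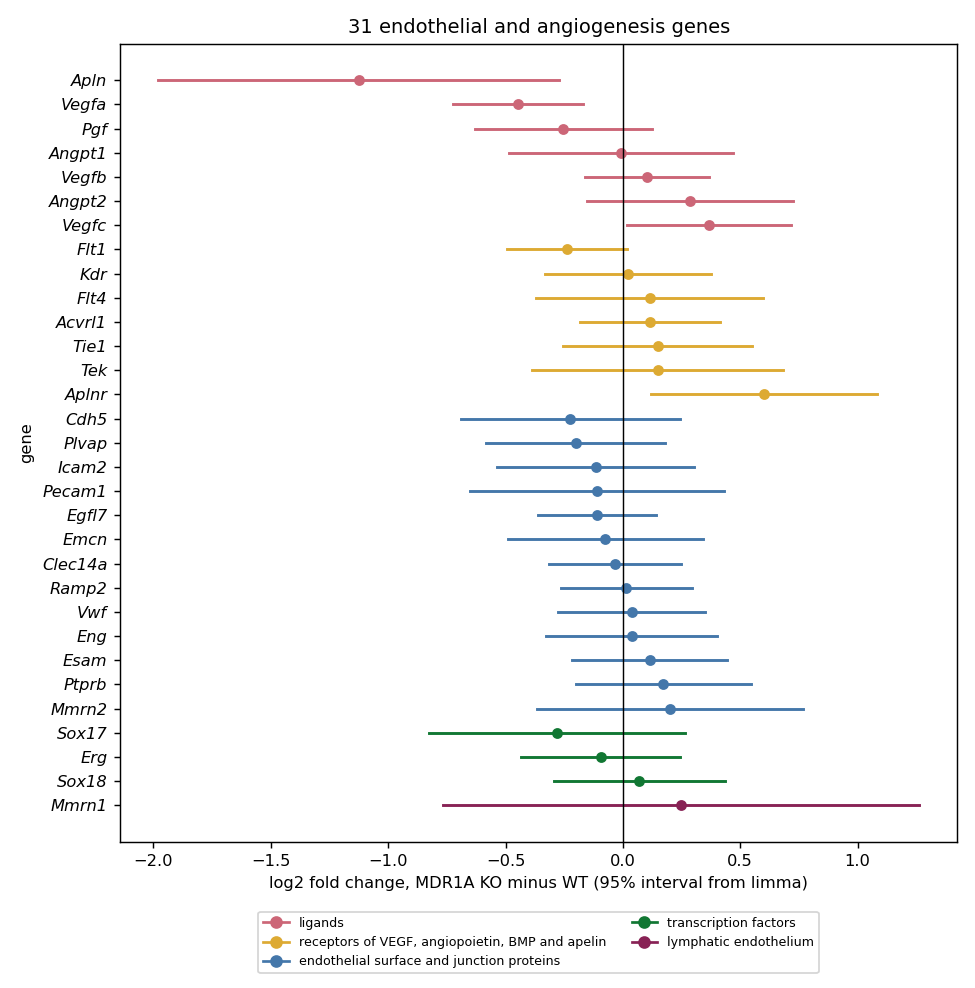
Log2 fold change (MDR1A KO minus WT, horizontal axis) of each of the 31 genes, with its 95% interval from limma, coloured by role. The intervals of Apln, Vegfa, Vegfc and Aplnr lie on one side of 0, and those of the 13 surface and junction genes all span it.

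The ligands held the lowest fold changes. Vegfa encodes the principal growth and permeability factor of blood vessels. Its log2 signal was 9.39, 9.15, 9.01 and 8.91 in WT tumors and 8.81, 8.68, 8.47 and 8.72 in MDR1A KO tumors. Every MDR1A KO tumor was below every WT tumor, with means of 9.12 ± 0.21 and 8.67 ± 0.14 (SD, n = 4 each). The log2 fold change was -0.45 (SE 0.12, 95% interval -0.72 to -0.17), or 1.36-fold lower, with an exact permutation p = 0.0286, the smallest that 4 against 4 tumors allow, and a limma adjusted p of 0.61. Without WT replicates 3 and 4 the log2 fold change was -0.60, but these were the lowest WT tumors for Vegfa, so leaving them out had to enlarge it. Epithelial markers were on the same side: 10 of 11 had a lower mean in MDR1A KO tumors, 2 at an unadjusted p under 0.05 (Krt20 and Cdx2). The median log2 fold change of the list was -0.13. Krt20 and Cdx2 were each at -0.65, the other lower markers ran from -0.20 (Vil1) to -0.02 (Cldn4), and Cdx1 was at 0.02. The mean log2 signal of the list was 10.48 to 10.61 in WT and 10.29 to 10.42 in MDR1A KO tumors. WT replicate 1, highest for Vegfa, was at 10.505. Cdx2 was above that p without WT replicate 4 or MDR1A KO replicate 1, 2 or 3 (-0.90 to -0.47 with 1 tumor left out). The part of the epithelial markers in the Vegfa difference was not tested.

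Apln encodes apelin, a peptide that endothelial tip cells secrete during sprouting. Apln had a log2 signal of 7.96, 6.54, 6.38 and 5.93 in WT tumors and 5.17, 5.54, 5.93 and 5.67 in MDR1A KO tumors. The groups touched without overlapping, since WT replicate 4 (5.931) and MDR1A KO replicate 3 (5.930) were nearly level. The log2 fold change was -1.13 (SE 0.38, 95% interval -1.98 to -0.27), or 2.18-fold lower, with an exact permutation p = 0.0286 and a limma adjusted p of 0.718. WT replicate 1 was the high value: without it the log2 fold change was -0.71. Without WT replicates 3 and 4, the lowest WT tumors, the log2 fold change was -1.67, an enlargement fixed by their position.

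Vegfc was the ligand with the highest fold change. VEGF-C feeds VEGFR3 and is best known for lymphatic growth. The Vegfc log2 signal was 7.12, 7.23, 7.29 and 6.60 in WT tumors and 7.43, 7.62, 7.38 and 7.28 in MDR1A KO tumors. WT replicate 4 was the low value, and the lowest MDR1A KO tumor lay just under the highest WT tumor. The log2 fold change was 0.37 (SE 0.16, 95% interval 0.02 to 0.72), with an exact permutation p = 0.0571 and a limma adjusted p of 0.77. It was 0.21 without WT replicate 4 and 0.25 without WT replicates 3 and 4, and in neither case was the unadjusted p under 0.05. The p was also above that threshold without WT replicate 1 and without MDR1A KO replicate 1, 2 or 3, each left out on its own.

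The promoters of these 3 ligands are shown because they were the members past an unadjusted p of 0.05 for which the RefSeq table held an entry, out of 16 members matched. Each run is the 250 bases before the most upstream start, 5′ to 3′ on the strand of the gene, in build GRCm38.p6: chr17:46032378-46032627 (minus strand) for Vegfa, chrX:48034854-48035103 (minus) for Apln and chr8:54077282-54077531 (plus) for Vegfc. Capitals mark the motifs searched, each on both strands, so that its reverse complement is also in capitals: ACGTG, the core of the hypoxia response element, GGGCGG, the Sp1 box, and AGGAAG, an ETS core with its flanks.
Vegfa: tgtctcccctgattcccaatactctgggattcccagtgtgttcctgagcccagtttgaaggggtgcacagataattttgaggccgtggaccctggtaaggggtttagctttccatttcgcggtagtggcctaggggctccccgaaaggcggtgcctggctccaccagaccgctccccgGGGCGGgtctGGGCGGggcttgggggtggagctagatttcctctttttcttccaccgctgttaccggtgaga
Apln: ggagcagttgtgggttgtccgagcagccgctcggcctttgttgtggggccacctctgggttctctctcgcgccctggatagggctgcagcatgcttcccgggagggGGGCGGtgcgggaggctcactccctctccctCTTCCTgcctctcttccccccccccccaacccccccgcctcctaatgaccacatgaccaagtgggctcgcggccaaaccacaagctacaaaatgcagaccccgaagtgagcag
Vegfc: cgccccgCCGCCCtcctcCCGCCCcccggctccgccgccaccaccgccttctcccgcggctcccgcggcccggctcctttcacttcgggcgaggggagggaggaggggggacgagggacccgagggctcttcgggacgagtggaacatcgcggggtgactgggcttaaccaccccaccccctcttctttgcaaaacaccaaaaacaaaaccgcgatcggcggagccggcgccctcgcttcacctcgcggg
The capitals were 2 Sp1 boxes for Vegfa, 1 Sp1 box and 1 ETS core for Apln, and 2 Sp1 boxes for Vegfc, and these letters of the hypoxia core were in none of these windows. GC content was 59.2%, 65.2% and 71.6%. Over all 27025 promoters of this length, 33.0% held the Sp1 box, 29.2% the ETS core and 16.5% the hypoxia core. Of the 16 members' promoters, 9, 6 and 1 did. The matches are descriptions of sequence and were not tied to any binding in these tumors.

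**Figure D2:**
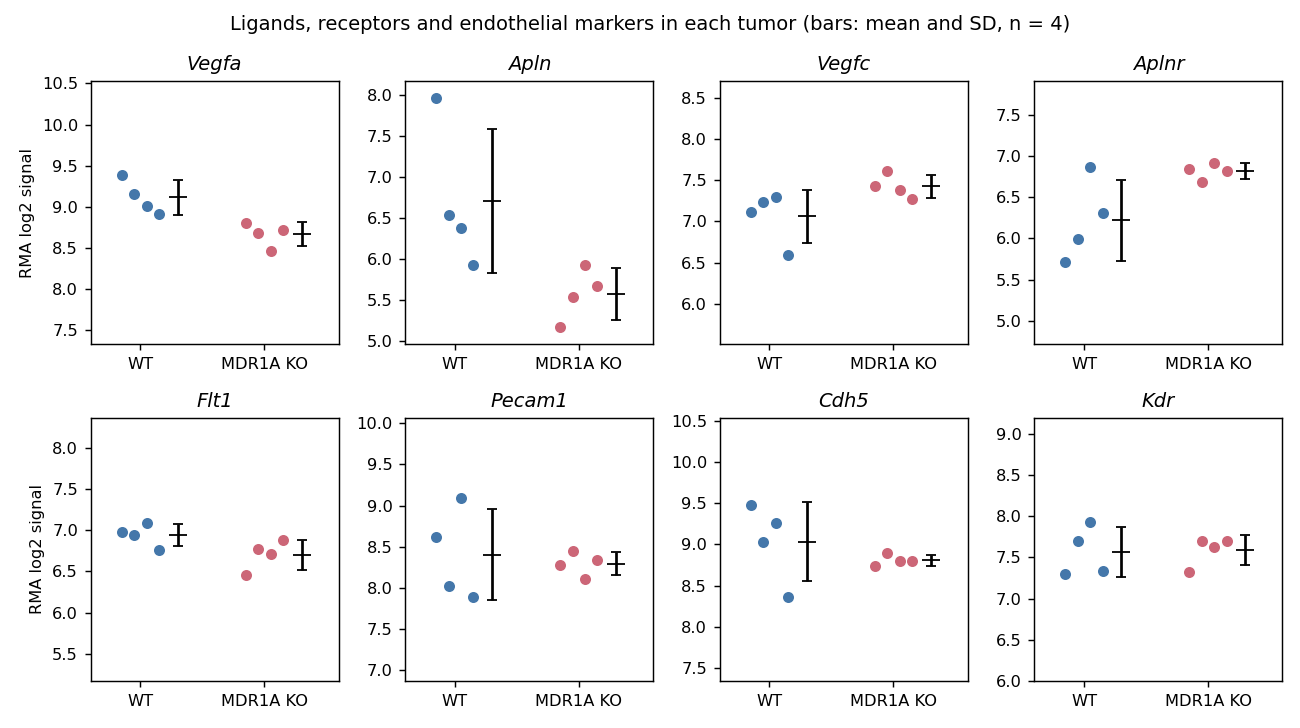
RMA log2 signal (vertical axes, each spanning the same 3.2 units) of 8 genes in each of 4 WT and 4 MDR1A KO tumors (points), with the mean and SD beside each group. Vegfa and Apln separate the genotypes, while the WT tumors spread widely around the MDR1A KO tumors for Pecam1 and Cdh5.

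The other 4 ligands had intervals that spanned 0. Vegfb, a VEGFR1 ligand, had a log2 fold change of 0.10 (95% interval -0.16 to 0.37). Without WT replicate 4 it was 0.21, with an unadjusted p under 0.05, without WT replicates 3 and 4 it was 0.27, and without WT replicate 1 it was 0.04. Angpt2, the Tie2 ligand that endothelium releases where vessels are remodelled, had one of 0.29 (-0.15 to 0.72), with log2 signals of 6.87 to 7.82 in WT and 7.44 to 7.84 in MDR1A KO tumors. Without WT replicate 2 it was 0.45, with an unadjusted p under 0.05, without WT replicate 3 it was 0.14, and without WT replicates 3 and 4 it was -0.04. Angpt1, the stabilising Tie2 ligand of mural cells, had one of -0.01 (-0.48 to 0.47), and a dimmer probe set of the same gene one of 0.18. For Pgf, placental growth factor and another VEGFR1 ligand, the log2 signal was 6.02, 5.18, 5.41 and 5.37 in WT tumors and 5.18, 5.19, 5.42 and 5.18 in MDR1A KO tumors. WT replicate 1 was the high WT value, MDR1A KO replicate 3 stood above the others of its group, and the log2 fold change was -0.25 (95% interval -0.63 to 0.12). Without WT replicate 1 it was -0.08. WT replicate 1 was thus the highest of the 8 tumors for Vegfa, Apln and Pgf, and also for Angpt1 (5.51), which was close to level between the groups.

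Among the 7 receptors, 6 had a higher mean in MDR1A KO tumors, where 11264 of 22184 genes did. Of these 6, Kdr was lower with the arrays quantile-normalized again. The 95% intervals of all receptors but 1 spanned 0, and that 1 passed an unadjusted p of 0.05. This was Aplnr, the apelin receptor of endothelial cells. Across the tumors its log2 signal was 5.71, 6.00, 6.87 and 6.30 in WT tumors and 6.85, 6.69, 6.92 and 6.82 in MDR1A KO tumors. 3 WT tumors lay below all MDR1A KO tumors, and WT replicate 3 lay within their range. The log2 fold change was 0.60 (SE 0.21, 95% interval 0.12 to 1.08), or 1.52-fold higher, with an exact permutation p = 0.114 and a limma adjusted p of 0.738. The ligand and its receptor therefore stood on opposite sides, Apln lower and Aplnr higher in MDR1A KO tumors. Without WT replicates 3 and 4 the Aplnr log2 fold change was 0.97, more than 1.5 times as large, with a limma adjusted p of 0.13. Those were the WT tumors nearest the MDR1A KO values, so leaving them out had to enlarge the difference. Without WT replicate 2 the unadjusted p of Aplnr was no longer under 0.05, with a log2 fold change of 0.53.

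Flt1 encodes VEGFR1, which binds VEGF-A tightly and also occurs as a soluble decoy. It was the receptor with a lower mean in MDR1A KO tumors. Its log2 signal was 6.98, 6.95, 7.09 and 6.76 in WT tumors and 6.45, 6.77, 6.71 and 6.88 in MDR1A KO tumors. Only WT replicate 4 lay within the MDR1A KO range. The log2 fold change was -0.24 (SE 0.11, 95% interval -0.49 to 0.02), with an exact permutation p = 0.0857 and a limma adjusted p of 0.786, and without WT replicate 4 or without MDR1A KO replicate 4 it was -0.30, with an unadjusted p under 0.05. Without MDR1A KO replicate 1 it was -0.16.

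Kdr, which encodes VEGFR2, the main signalling receptor of VEGF-A, was close to level. For Kdr the log2 signal was 7.30, 7.70, 7.94 and 7.33 in WT tumors and 7.32, 7.71, 7.63 and 7.70 in MDR1A KO tumors. The MDR1A KO range lay within the WT range, and the log2 fold change was 0.02 (SE 0.16, 95% interval -0.33 to 0.38). The lymphatic receptor Flt4 (VEGFR3) had a log2 fold change of 0.11 (95% interval -0.37 to 0.60). The angiopoietin receptor Tek (Tie2) and the related Tie1 both had one of 0.15, with intervals of -0.39 to 0.68 and -0.25 to 0.55. Tek was at 0.50 without WT replicates 3 and 4, and Tie1 at 0.0036 without WT replicate 4. Acvrl1 encodes ALK1, the endothelial receptor of BMP9 and BMP10. The Acvrl1 log2 signal was 6.90, 6.83, 7.40 and 6.82 in WT tumors and 7.02, 7.15, 7.07 and 7.16 in MDR1A KO tumors. All 4 MDR1A KO tumors were above 3 WT tumors and below WT replicate 3, and the log2 fold change was 0.11 (95% interval -0.18 to 0.41). Without WT replicate 3 it was 0.25, with an unadjusted p under 0.05, and it was 0.06 without WT replicate 2 or without WT replicate 4.

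The 13 surface and junction proteins, which include the usual markers of endothelium, held no member under an unadjusted p of 0.05. Means were higher in MDR1A KO tumors for 6 and lower for 7, although Ramp2 and Vwf turned lower with the arrays quantile-normalized again and Ramp2 also with the arrays centred again. The log2 fold changes ran from -0.22 to 0.20 with a median of -0.03, and the 95% intervals reached from -0.69 to 0.77.

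Pecam1 encodes CD31, the usual histological marker of vessels. Across the tumors the Pecam1 log2 signal was 8.62, 8.02, 9.09 and 7.88 in WT tumors and 8.28, 8.44, 8.11 and 8.34 in MDR1A KO tumors. The MDR1A KO values all lay within the WT range, and the log2 fold change was -0.11 (SE 0.24, 95% interval -0.65 to 0.43). Cdh5 encodes VE-cadherin, the adhesion molecule of endothelial junctions. For Cdh5 the log2 signal was 9.48, 9.03, 9.26 and 8.37 in WT tumors and 8.73, 8.89, 8.80 and 8.80 in MDR1A KO tumors. 3 WT tumors were above every MDR1A KO tumor and WT replicate 4 was below them all. The log2 fold change was -0.22 (SE 0.21, 95% interval -0.69 to 0.24), and it depended on single WT tumors. Without WT replicate 1 it was -0.07, and without WT replicate 4 it was -0.45, with an unadjusted p of 0.00494 in limma and an adjusted p of 0.619. Vwf encodes von Willebrand factor, which endothelium stores for haemostasis. The Vwf log2 signal was 6.73, 6.52, 6.55 and 6.51 in WT tumors and 6.63, 6.94, 6.65 and 6.24 in MDR1A KO tumors. WT replicate 1 stood apart from a narrow WT group, the MDR1A KO tumors spread more widely, and the log2 fold change was 0.04 (95% interval -0.28 to 0.35).

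The remaining surface genes also had intervals that spanned 0. Plvap, which forms the diaphragms of fenestrated vessels, had a log2 fold change of -0.20 (95% interval -0.58 to 0.18), which was -0.02 without WT replicate 3. The adhesion molecule Icam2 had one of -0.12. Egfl7, a secreted matrix protein of endothelium, had one of -0.11, the sialomucin Emcn of venous and capillary endothelium one of -0.07, and the lectin-like receptor Clec14a one of -0.03. Ramp2, which pairs with the adrenomedullin receptor, had one of 0.02 (0.20 without WT replicates 3 and 4), Eng (endoglin, the coreceptor of ALK1) one of 0.04, and the tight junction adhesion molecule Esam one of 0.11 (0.001 without WT replicate 4). Ptprb (VE-PTP), the phosphatase that restrains Tie2, had one of 0.17, and Mmrn2, a matrix ligand of Clec14a, one of 0.20. For Mmrn2, WT replicate 3 was the highest of the 8 tumors at a log2 signal of 8.24, and without that tumor the log2 fold change was 0.48, with an unadjusted p under 0.05. Without WT replicate 4 it was 0.02, and without both it was 0.36.

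The transcription factors of endothelial identity had intervals spanning 0. Erg, an ETS factor that maintains junction genes, had a log2 fold change of -0.09 and Sox18 one of 0.07. Sox17, an arterial factor that is also expressed outside endothelium, had one of -0.28 (95% interval -0.83 to 0.26), which was -0.09 without WT replicate 4 and -0.47 without MDR1A KO replicate 2. Its pattern across tumors differed from that of the surface genes, since WT replicate 4, low for most of them, was the highest of the 8 tumors for Sox17 at a log2 signal of 9.27. Mmrn1, a matrix protein of lymphatic endothelium and platelets, had the widest 95% interval of the 31 members. Across the tumors the Mmrn1 log2 signal was 8.13, 7.08, 8.36 and 6.07 in WT tumors and 7.58, 8.16, 7.32 and 7.59 in MDR1A KO tumors. The MDR1A KO tumors lay within the WT range, and the log2 fold change was 0.25 (95% interval -0.76 to 1.26).

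A difference of spread ran through the members. The SD over the 4 WT tumors was larger than that over the 4 MDR1A KO tumors for 28 of 31 members (90.3%), the others being Vwf, Flt1 and Icam2, against 14598 of 22184 genes (65.8%). The median SD of the members was 0.36 in WT and 0.14 in MDR1A KO tumors on the log2 scale, where that of all genes was 0.18 and 0.14. All genes include those under the dim limit, whereas no member mean was under it. The smooth muscle markers also each had the larger SD in WT tumors, from 0.50 against 0.25 for Lmod1 to 1.72 against 0.24 for Des. For Clec14a the SD was 0.26 in WT and 0.03 in MDR1A KO tumors, for Cdh5 0.48 and 0.07, for Plvap 0.38 and 0.07 and for Eng 0.36 and 0.06. The members share tumors, so these counts are a description of 4 tumors against 4 and carry no test.

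WT replicates 3 and 4 held the extremes. WT replicate 3 was the highest of the 8 tumors for 15 members and WT replicate 4 the lowest for 14, where WT replicate 3 was the highest for 15.3% of all genes and WT replicate 4 the lowest for 16.2%. Over the 24 members other than ligands, the mean deviation from the gene means was 0.35 in WT replicate 3 and -0.29 in WT replicate 4 on the log2 scale. It was 0.0036 and -0.11 in WT replicates 1 and 2, and between -0.07 and 0.12 in the MDR1A KO tumors. Of the 7 ligands none was highest in WT replicate 3. Vegfc had the order of the other members among WT tumors, highest in WT replicate 3 and lowest in WT replicate 4, whereas Vegfb was highest in WT replicate 4.

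**Figure D3:**
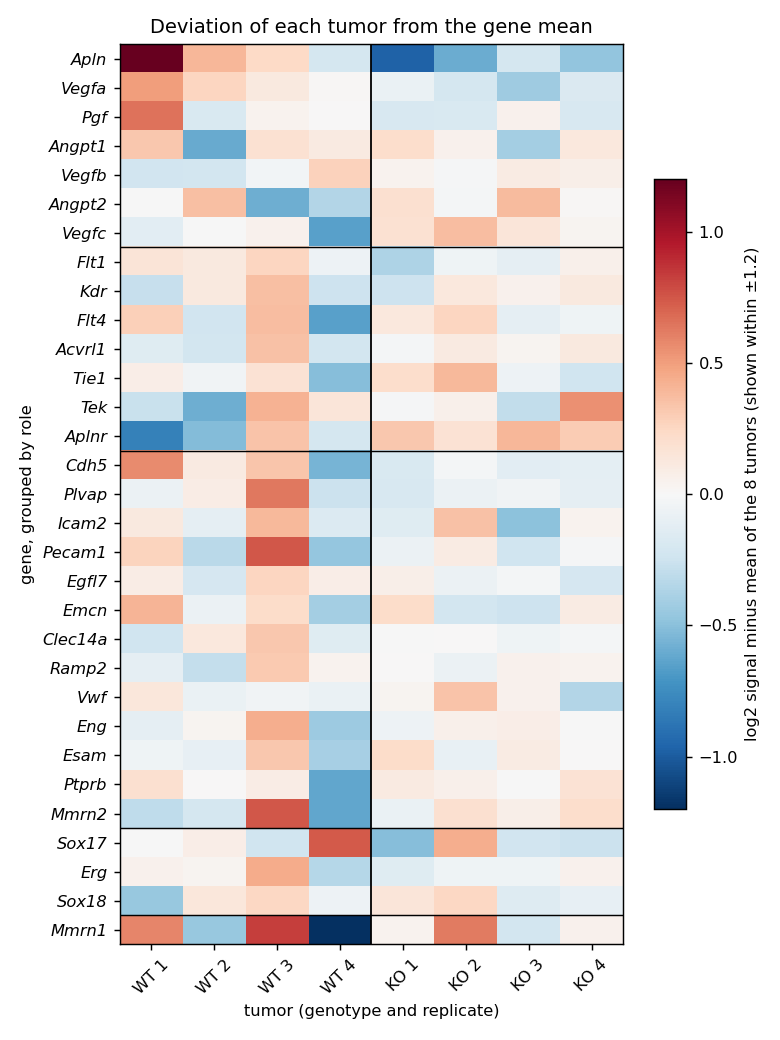
Deviation of the log2 signal of each tumor (columns) from the mean of the 8 tumors for each of the 31 genes (rows, grouped by role), in colour. WT replicate 3 is mostly above and WT replicate 4 mostly below the mean among receptors and surface genes, while the MDR1A KO columns are paler for most genes.

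The mean of other blood endothelial genes also had its extremes in WT replicates 3 and 4, as did that of the venous and activated adhesion list. Not every gene or list followed: Cdh13 (7.94) and Ecscr (8.40) were lowest in WT replicate 3. The tip cell and lymphatic lists had their highest mean in WT replicate 1 (7.88 and 8.44), and the arterial list its lowest in MDR1A KO replicate 1 (6.45). Of 26 further genes of blood endothelium, 25 were measured. The mean log2 signal of these 25 ran from 6.50 in WT replicate 4 to 7.04 in WT replicate 3, and from 6.72 to 6.88 among MDR1A KO tumors. 18 had a higher mean in MDR1A KO tumors, with a median log2 fold change of 0.07. Only Nos3, the endothelial nitric oxide synthase, had an unadjusted p under 0.05 (log2 fold change -0.27, SE 0.11, limma adjusted p = 0.77). That was 1 of 25 genes, where 6.4% of all probe sets passed. For Nos3 it was above that threshold without WT replicate 1 or 3 or MDR1A KO replicate 2, 3 or 4, each left out on its own (-0.33 to -0.21). Markers of other cells moved with the endothelial genes across WT tumors. Fibroblast markers (10 of 10 measured) had deviations of 0.48 in WT replicate 3 and -0.59 in WT replicate 4, with a mean log2 signal of 8.49 to 9.55 in WT and 9.13 to 9.28 in MDR1A KO tumors. For the smooth muscle list (10 of 10) it was 7.80 to 10.07 in WT and 9.35 to 9.76 in MDR1A KO tumors, all 10 genes had a higher mean in the latter, and the median log2 fold change was 0.74, with 0 at an unadjusted limma p under 0.05. For the leukocyte list (9 of 10) it was 7.31 to 8.57 in WT and 7.90 to 8.45 in MDR1A KO tumors, with a median of 0.29 and likewise 0 genes. Pericyte genes, which mark the cells that wrap capillaries, had a mean log2 signal of 7.03 to 7.40 in WT and 7.05 to 7.21 in MDR1A KO tumors (9 of 9 measured, 4 higher, median log2 fold change -0.02, 0 at an unadjusted p under 0.05). One of them, Vtn, was at 9.67 in WT replicate 4 and at 5.29 to 5.66 in the other tumors. Without Vtn, a choice made after seeing the values, the mean of the other 8 genes ran from 6.99 in WT replicate 4 to 7.63 in WT replicate 3, and from 7.22 to 7.41 in MDR1A KO tumors. The part of these cell types in the spread of the endothelial genes was not tested.

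**Figure D4:**
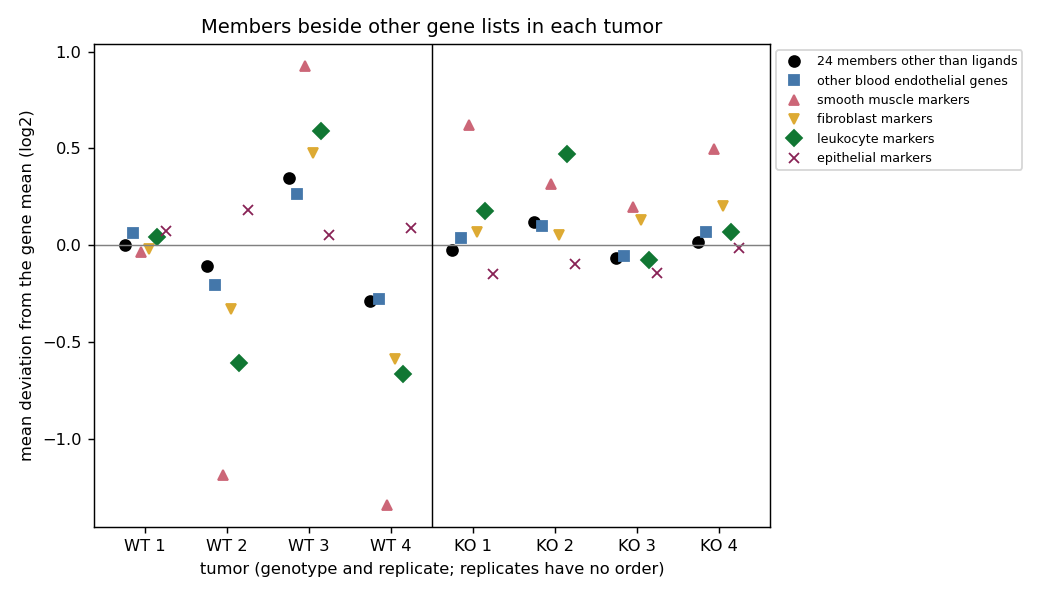
Mean deviation from the gene means (vertical axis, log2) in each tumor (horizontal axis) for the 24 members other than ligands and for 5 other gene lists. In WT replicates 2, 3 and 4 the endothelial genes lie on the same side of 0 as the smooth muscle, fibroblast and leukocyte markers, and the epithelial markers stay between -0.15 and 0.18.

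Genes that surround these pathways were read as lists. Over all 17 other lists, 10 genes had an unadjusted limma p under 0.05, 0 to 2 in each list. The share over all tested probe sets was 6.4%, and no list was tested as a set. Of 14 measured partners of the VEGF, angiopoietin and apelin pathways (15 listed), 8 had a higher mean in MDR1A KO tumors and the median log2 fold change was 0.06. Angptl4, a secreted inhibitor of lipoprotein lipase that is induced by hypoxia and fasting, was the only one with an unadjusted p under 0.05. Its log2 signal was 6.50, 5.94, 6.83 and 6.03 in WT tumors and 5.49, 5.58, 6.01 and 5.83 in MDR1A KO tumors. Only the highest MDR1A KO tumor entered the WT range (log2 fold change -0.60, SE 0.20, exact permutation p = 0.0571, limma adjusted p = 0.73).

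Of 12 tip cell and sprouting genes, 4 had a higher mean in MDR1A KO tumors, with a median log2 fold change of -0.03. Esm1 (endocan), a proteoglycan of VEGF-stimulated tip cells, had an unadjusted p under 0.05. Its log2 signal was 5.34, 5.95, 5.90 and 5.92 in WT tumors and 5.26, 5.37, 5.38 and 5.62 in MDR1A KO tumors. The MDR1A KO mean of 5.41 was below the lowest array median of 5.62. WT replicate 1, the tumor with the highest Vegfa and Apln, was the lowest WT tumor here and within the MDR1A KO range (log2 fold change -0.37, SE 0.15, exact permutation p = 0.114, limma adjusted p = 0.756). With 1 tumor left out it ran from -0.52 to -0.32, and the unadjusted p was above 0.05 without WT replicate 2, 3 or 4 or MDR1A KO replicate 1, 2 or 3. Dll4, the Notch ligand of tip cells, had a log2 fold change of 0.13 (95% interval -0.09 to 0.36).

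Of 12 genes of the ALK1 and endoglin pathway, 8 had a higher mean in MDR1A KO tumors, with a median of 0.04. Tmem100, an endothelial gene downstream of ALK1, was at a log2 signal of 5.85 to 6.92 in WT and 6.43 to 7.08 in MDR1A KO tumors (log2 fold change 0.57, SE 0.24, limma adjusted p = 0.764). With 1 tumor left out it ran from 0.42 to 0.78, and the unadjusted p was above 0.05 without WT replicate 2, 3 or 4 or MDR1A KO replicate 1, 2 or 4. The 8 venous and activated adhesion genes had 5 higher means and a median of 0.06, the 9 arterial genes 2 and -0.08, and the 6 measured lymphatic genes (7 listed) 4 and 0.14, with 0 genes of these 3 lists at an unadjusted p under 0.05. Lyve1, a hyaluronan receptor of lymphatic endothelium, ranged from 7.33 to 9.97 in WT and from 8.60 to 9.53 in MDR1A KO tumors on the log2 scale, with an SD of 1.19 and 0.41. Prox1, also in the lymphatic list, was at 9.65 in WT replicate 3, its lowest of the 8 tumors. It had the highest log2 fold change of that list (0.33, 95% interval -0.21 to 0.87). Whether its signal came from lymphatic endothelium was not tested. Pdpn was in both the lymphatic and the fibroblast list, so the lymphatic median was not of that endothelium alone.

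Among 11 measured genes of a list of angiogenesis inhibitors and related genes (12 listed), 3 had a higher mean in MDR1A KO tumors. The median log2 fold change was -0.11. This median was not of inhibitors alone, since the list held Plxnd1, a receptor that was also among the pathway partners. Sema3e, a semaphorin that repels endothelial cells through plexin D1, had an unadjusted p under 0.05. Its log2 signal was 7.86, 7.51, 6.96 and 6.60 in WT tumors and 8.16, 8.05, 8.47 and 8.29 in MDR1A KO tumors. All MDR1A KO tumors were above all WT tumors (log2 fold change 1.01, SE 0.25, 2.01-fold, exact permutation p = 0.0286, limma adjusted p = 0.541). Without WT replicates 3 and 4 the log2 fold change was 0.56. Among 11 measured growth factors of other families that also act on vessels (13 listed), 4 had a higher mean, the median was -0.08, and 2 were lower at an unadjusted p under 0.05. These were the ERBB ligands Nrg1 (log2 fold change -1.22, SE 0.24, limma adjusted p = 0.425) and Ereg (-1.42, SE 0.41, adjusted p = 0.649), and for both every MDR1A KO tumor was below every WT tumor. Sema3e, Nrg1 and Ereg were singled out by the study on these same samples, so their direction is not independent evidence.

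Platelets carry some of the same genes as endothelium, Vwf and Mmrn1 among them. Of 9 platelet and megakaryocyte markers 7 were measured, 1 had a higher mean in MDR1A KO tumors, and the median log2 fold change was -0.17. The mean log2 signal of this list was 5.81 to 6.48 in WT and 5.84 to 6.76 in MDR1A KO tumors. Its highest value, in MDR1A KO replicate 2, rested on Ppbp, which was at 11.39 there and at 5.23 to 8.37 in the other tumors. Without Ppbp, left out after its values had been seen, the mean of the other 6 genes was 5.91 to 6.23 in WT and 5.79 to 5.99 in MDR1A KO tumors. Itga2b, the platelet integrin, was lower at an unadjusted p under 0.05 (log2 fold change -0.21, SE 0.09, limma adjusted p = 0.77), and was above that threshold with any single tumor left out except MDR1A KO replicate 1 (-0.24 to -0.14). Of 9 red blood cell markers 1 was measured by a probe set of its own (log2 fold change 0.05), and of 7 enteric glia and neuron markers 5 were (median 0.01), with 0 at an unadjusted p under 0.05 in either list. The part of platelets in the values of Vwf and Mmrn1 was not tested.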

How the data were processed

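The authors deposited log2 signals per probe set, which their methods and processing notes trace to RMA in Affymetrix Expression Console 1.4. RMA corrects background, quantile-normalizes the arrays to each other and summarises the probes of each set, so a level is relative to the other arrays. For the arrays, build and annotation release were not given in the sources used here. A symbol was listed for 25341 of 41345 probe sets (1 symbol for 23525, several for 1816) and for 16004 there was none. A gene was read from its brightest 1-symbol probe set, and 2 probe sets naming a member together with another gene were not used. Array medians ran from 5.62 to 5.67.

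Differences (MDR1A KO minus WT), standard errors, 95% intervals and two-sided p-values were estimated with limma 3.58.1 (lmFit, eBayes; R 4.3.3), and p-values were adjusted by the Benjamini-Hochberg method over all 25341 probe sets with a symbol. Single genes were also compared by a two-sided exact permutation test over the 70 arrangements of 4 against 4 tumors. Replicates were separate mice, and the number of arrays limits the precision. The test was tried on simulated data first. The members and the 17 other gene lists were chosen with earlier results of these data known. Values per tumor are given for members past an unadjusted p of 0.05, members whose groups did not overlap, Pecam1, Cdh5, Kdr and Vegfa, and members in which 1 tumor stood apart. From other lists up to 4 genes of smallest p could be named. Values of Flt1, Mmrn1, Prox1, Dll4 and Lyve1 were added after they had been seen, as were single values of Angpt1 and Icam2. The settings varied were the test (the methods' t-test), the probe sets tested (all, 1-symbol only, dim ones removed), a second centring or quantile step, the variance model, weights per array, a replicate block, averaging a gene's probe sets, and the tumors included (each left out in turn, and WT replicates 3 and 4 left out together). As an alternative, Vtn and Ppbp were left out of the means of their lists. Promoter sequences are from RefSeq.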

Additional observations from a re-analysis of the deposited data

Results flagged for a closer look

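Of 82 groups of 4 tumors examined, 4 held 1 tumor far from the other 3, and chance flags about 1 in 20 such groups. For Vwf, WT replicate 1 was at a log2 signal of 6.734, with the other WT tumors at 6.515 to 6.552. For Pgf, MDR1A KO replicate 3 was at 5.423, with the others of its group at 5.176 to 5.191. For Acvrl1, WT replicate 3 was at 7.399, with the others at 6.822 to 6.898. For Esm1, the tip cell gene, WT replicate 1 was at 5.339, below the other WT tumors at 5.902 to 5.953.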

How the results depend on the processing

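The 4 members under an unadjusted p of 0.05 became 1 by the methods' t-test (Vegfa), 7 without WT replicates 3 and 4, 3 to 6 with 1 tumor left out, and 4 or 5 under the other alternatives. In 19 alternatives Vegfa stayed under that p in all (log2 fold change -0.60 to -0.35), Apln in 18 (-1.67 to -0.71), Aplnr in 17 (0.43 to 0.97) and Vegfc in 11 (0.21 to 0.44). No alternative put a member under an adjusted p of 0.05, a count of 0 against 4 members under an unadjusted p, and the adjusted p of Vegfa ran from 0.241 to 0.997. 6 other members came under an unadjusted p of 0.05 in some alternative, Flt1 in 5. Of the other-list genes named, Sema3e, Nrg1, Ereg, Angptl4 and Krt20 stayed under an unadjusted p of 0.05 in all 19, while Nos3, Esm1, Tmem100, Cdx2 and Itga2b were above it in 7, 8, 10, 6 and 12. The adjusted p of Abcb1a was above 0.05 by the methods' t-test (0.253), with the block (0.069), without MDR1A KO replicate 3 (0.0599) and without WT replicates 3 and 4 (0.106).

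The replicate number as a block gave 4 members, Apln, Aplnr, Vegfa and Vegfc, as without the block. The deviations of same-numbered tumors correlated at 0.11, 0.02, -0.10 and 0.35, and 2 of 8 tumors correlated best with their own number, so the numbers were not taken as a pairing.

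17 members, none of the 4 above, changed sign somewhere. Without WT replicates 3 and 4 the log2 fold change was 0.136 for Angpt1, -0.0381 for Angpt2, 0.0397 for Clec14a, 0.0019 for Egfl7, -0.0104 for Ptprb and -0.0102 for Vwf. With arrays quantile-normalized again it was -0.0143 for Kdr, -0.037 for Ramp2 and -0.0122 for Vwf, with arrays centred again -0.0031 for Ramp2, with array weights 0.0248 for Angpt1, and with the mean of its probe sets 0.0878 for Angpt1. With 1 tumor left out it ran from -0.211 to 0.127 for Angpt1, -0.119 to 0.0691 for Clec14a, -0.224 to 0.0491 for Emcn, -0.101 to 0.188 for Eng, -0.226 to 0.0387 for Erg, -0.0862 to 0.257 for Flt4, -0.253 to 0.0285 for Icam2, -0.0657 to 0.146 for Kdr, -0.197 to 0.567 for Mmrn1, -0.285 to 0.117 for Pecam1, -0.0081 to 0.265 for Ptprb, -0.0771 to 0.123 for Ramp2, -0.0723 to 0.163 for Sox18, -0.0231 to 0.312 for Tek and -0.0701 to 0.161 for Vwf. The cause was not tested.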
